A study of Mus musculus with 24 samples.

Results

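The genes described here encode the enzymes and readers that set marks on histones and DNA, together with chromatin remodelers and a histone chaperone. They were taken by symbol from a list of 47 genes, of which 44 were found on a mouse neuroinflammation panel with 703 named and 54 unnamed probes, and Suv39h1, Tet1 and Ncor1 were not matched. In the cell nucleus, methyltransferases and acetyltransferases place marks on histone tails, demethylases and deacetylases remove them, and bromodomain proteins bind acetylated tails. Polycomb complexes keep genes silent, DNA methyltransferases mark cytosines, and ATP-driven remodelers move nucleosomes. In the brain these enzymes act in neurons and glia alike, and several are known for roles in memory and in the response to DNA damage.

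The study asked whether extracellular vesicles (EVs) from human neural stem cells change the brain after chemoradiation for glioma. All 24 samples came from male C57BL/6J mice aged 27 weeks at perfusion, and vehicle and EVs were given into the venous sinus behind the eye. Control + Veh mice had no tumor, no radiation and no drug, and received vehicle. RT-TMZ + Veh mice received cranial radiation, given in the labels as 3 x 9 Gy and in the methods as slightly less per fraction, and temozolomide (TMZ), an alkylating drug, at 25 and then 66.7 mg/kg, followed by vehicle, with no tumor. CT2A + RT-TMZ + Veh mice also carried CT2a-Luc, a luciferase-expressing mouse glioma line implanted in the brain, before the same treatment. The 4 EV groups had RT-TMZ with or without CT2A and are named for the human neural stem cell line that gave the EVs, Shef6 or UCI-191. The vehicle groups held 4 samples each and the EV groups 3 each. Among these 24 samples no group carried the tumor without RT-TMZ, and no Control mice received EVs, so the tumor is compared only on a treated background. The study had such mice in its behavior and tissue staining experiments.

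Values are log2 normalized counts, on which a difference of 1 is a doubling. The tissue is labelled brain; the methods describe dissection of prefrontal cortex and hippocampus, and the study's legend to the expression data names the hippocampus. Neuron, microglia, astrocyte and oligodendrocyte markers were above background in every group, while 11 to 12 of 13 lymphocyte markers had a mean under background. The tumor's share of the RNA was not measured. The low values fell on a grid that gave the scaling factor of each sample. It was 1.32 to 1.42 in CT2A + RT-TMZ + Veh and 0.837 to 1.18 in the other groups, with implied totals of 862077 to 936266 counts against 1009242 to 1477390. CT2A + RT-TMZ + Veh also stood apart in its summed endothelial markers, at 1964 to 2467 normalized counts against 3246 to 4692 elsewhere, with all 8 markers above background. Its astrocyte sum reached from 19214 to 25567, against 23836 to 30190 elsewhere, and its oligodendrocyte sum from 5187 to 19569 with a median of 15692, against group medians of 18656 to 20479 elsewhere, where the lowest sample was at 11372. The part of these shifts in the results below was not tested, and fewer cells of a type cannot be told apart from less RNA per cell.

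Most of these genes have promoters rich in CpG. Of the 44 genes, 38 had an entry in the RefSeq promoter table (GRCm38.p6). Over the 250 bases before the start that the table gives, their median GC content was 67.4% and their median number of CpG was 21.5, against 52.0% and 6.0 over 27025 genes. The GC box, the letters GGGCGG on either strand, was found in 26 of the 38 (68.4%) and in 32.9% of all promoters. CCAAT on either strand was found in 34.2% and 34.5%, TATAAA in 2.63% and 13%. CCGGAAG was found in 10.5% and 7.05%, and the NRF1 motif in 0 of 38 and 0.781%. These bases are shown for the 3 genes with the smallest p-values across the 7 groups, because Setd2 and Bmi1 were low and Mbd3 was high in the same samples. For Setd2 the table's start lies inside the annotated gene, so only the 153 bases before the gene's outer bound are shown. Capitals mark the GC boxes on either strand, overlapping ones included.
Setd2, chr9:110532347-110532499, plus strand: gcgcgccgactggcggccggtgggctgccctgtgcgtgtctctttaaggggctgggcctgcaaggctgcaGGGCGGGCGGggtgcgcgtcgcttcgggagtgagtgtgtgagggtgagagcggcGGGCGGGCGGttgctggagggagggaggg
Bmi1, chr2:18676768-18677017, plus strand: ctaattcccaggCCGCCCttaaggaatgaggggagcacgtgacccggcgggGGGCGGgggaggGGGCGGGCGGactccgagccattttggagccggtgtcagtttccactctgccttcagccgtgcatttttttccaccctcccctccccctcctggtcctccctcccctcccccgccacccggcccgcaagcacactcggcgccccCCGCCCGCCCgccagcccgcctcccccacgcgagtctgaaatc
Mbd3, chr10:80399532-80399781, minus strand: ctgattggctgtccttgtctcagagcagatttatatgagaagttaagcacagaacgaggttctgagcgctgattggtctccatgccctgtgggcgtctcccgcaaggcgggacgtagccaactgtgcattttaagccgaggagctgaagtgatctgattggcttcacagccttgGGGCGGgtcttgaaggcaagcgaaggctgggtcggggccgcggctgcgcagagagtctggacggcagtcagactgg
The Setd2 stretch held 4 GC boxes, Bmi1 6 and Mbd3 1, and GC content was 73.9%, 70.4% and 57.6%. These are matches of letters and not measured binding sites.

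Of the 44 genes, 42 lay above the background level of 20 normalized counts (4.32 on the log2 scale) in every sample. Kdm3b, a histone H3 lysine demethylase, ranged from 3.34 to 4.48, with a mean under background in every group, and Dnmt3b, a de novo DNA methyltransferase, from 3.34 to 4.45. Across the 7 groups, 26 of 44 genes differed by limma's F test with Benjamini-Hochberg adjustment over all probes, where 48% of all probes did. All 5 acetyltransferases were among the 26, as were both genes of H3K36 and H3K79 methylation. In the other roles these were 3 of 6 polycomb genes, 2 of 3 H3K9 methyltransferases, 3 of 5 genes of H3K4 methylation, 3 of 7 demethylases, 3 of 5 genes of DNA methylation, 2 of 4 remodelers, 1 of 2 bromodomain readers, 1 of 4 deacetylases and the 1 chaperone, Hira. The smallest adjusted p-values were 7.39e-05 for Setd2, 0.000166 for Bmi1, 0.000269 for Mbd3, 0.000559 for Setd1b and 0.000587 for Crebbp. The F test takes 1 spread per gene for all 7 groups. In CT2A + RT-TMZ + Veh the SD was 0.22 for Setd2, against at most 0.07 elsewhere. For Setd1b it was 0.38, against at most 0.095 elsewhere. For Bmi1 it was 0.08, as in Control + Veh. The lowest group mean lay in CT2A + RT-TMZ + Veh for 26 of the 44 genes, and the highest in Control + Veh for 19. The same count over all probes was not made. In CT2A + RT-TMZ + Veh 31.7% of all probes were higher than in RT-TMZ + Veh (median difference -0.14). Against Control + Veh 45.6% of all probes were higher (median difference -0.055).

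**Figure D1:**
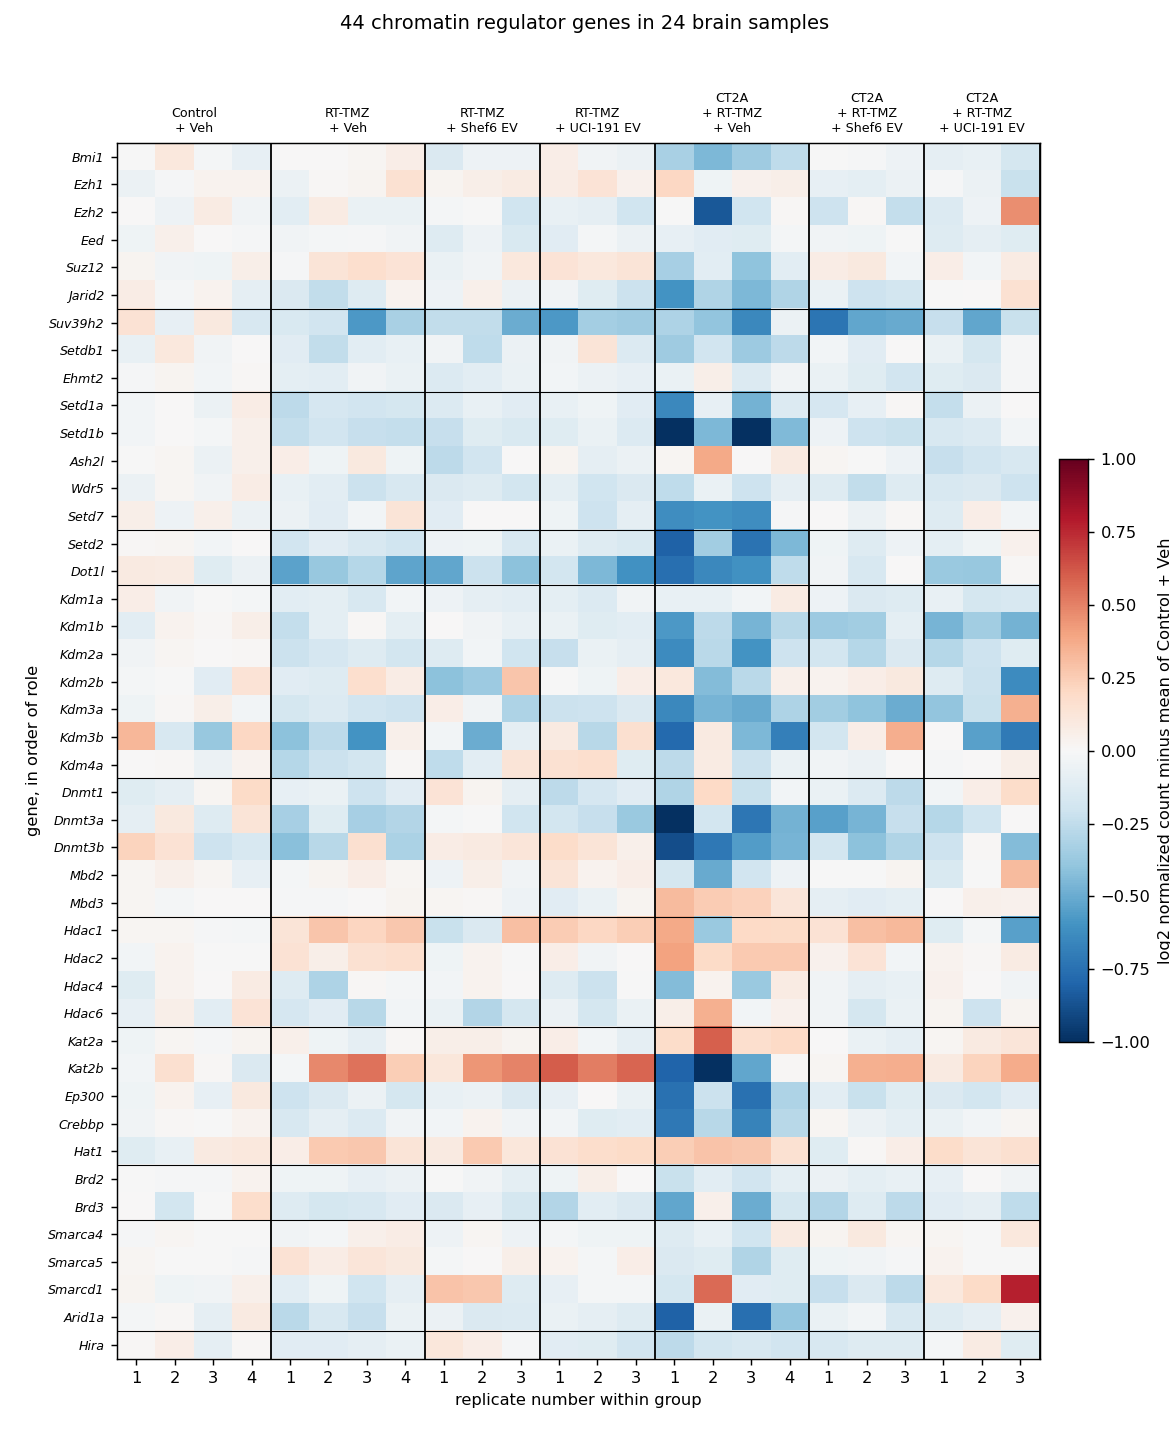
Level of each of the 44 measured genes (rows, in order of role, separated by lines) in the 24 samples (columns, by group and replicate number), as the log2 normalized count minus the mean of Control + Veh; blue is lower and red higher, and colours stop at 1 in either direction. The blue columns of CT2A + RT-TMZ + Veh are the group where 26 of 44 genes had their lowest mean, a count not made over all probes. Replicates 1 and 3 of that group are the darkest for Setd1b and Ep300.

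Setd2, the methyltransferase for trimethylation at H3K36, showed the pattern most clearly. Its levels in Control + Veh were 11.39, 11.40, 11.35 and 11.38, and in RT-TMZ + Veh 11.19, 11.27, 11.22 and 11.18. With the tumor and vehicle the values were 10.57, 11.03, 10.64 and 10.93, lower than every sample of the other groups. RT-TMZ + Shef6 EV gave 11.33, 11.34 and 11.22, and RT-TMZ + UCI-191 EV 11.31, 11.25 and 11.23. With the tumor, the Shef6 EV group gave 11.34, 11.25 and 11.33, and the UCI-191 EV group 11.28, 11.34 and 11.42. The last was the highest of the 24 samples, and the others lay within the range of the tumor-free groups.

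Bmi1, a ring finger protein of polycomb complex 1 that stem cells need for self-renewal, was at 9.92, 9.79, 9.89 and 9.99 in CT2A + RT-TMZ + Veh and between 10.07 and 10.35 in the other 20 samples. Mbd3, a subunit of the NuRD deacetylase complex, was high in the same group. It read 11.26, 11.19, 11.17 and 11.06 there, against 10.83 to 10.99 elsewhere. For both genes the group did not overlap any other, and for how many of all probes it stood apart was not counted. Against RT-TMZ + Veh, Bmi1 went from -0.37 to -0.10 after median centring (adjusted p = 0.534 by limma). Setd2 went from -0.42 to -0.155 (adjusted p = 0.518), though against Control + Veh it passed after quantile normalization (-0.52, adjusted p = 0.0137). Mbd3 against Control + Veh went from 0.23 to 0.445 after median centring (adjusted p = 0.0412).

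**Figure D2:**
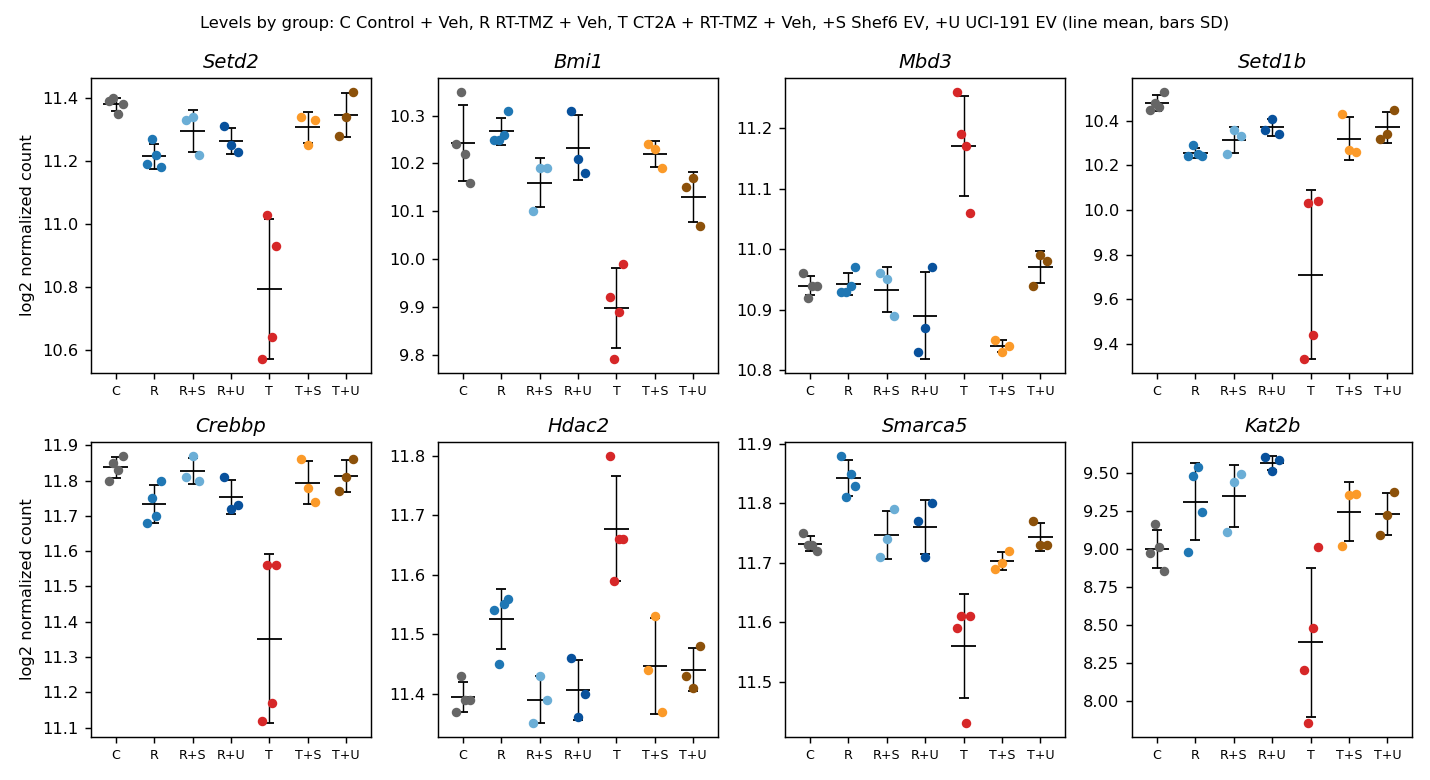
Log2 normalized counts (y axes, which do not start at 0) of the 8 genes with the smallest p-values across the 7 groups (x axes); points are samples, lines means and bars 1 SD. CT2A + RT-TMZ + Veh is lowest for Setd2, Bmi1, Setd1b, Crebbp, Smarca5 and Kat2b and highest for Mbd3 and Hdac2.

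Chemoradiation without the tumor went with small differences, in which 6 methyltransferase and demethylase genes fell and 2 deacetylase genes and a remodeler rose. Between RT-TMZ + Veh and Control + Veh, 9 of 44 genes passed, against 17.8% of all probes. Of these 3 were higher (12.2% of all probes) and 6 lower (5.68% of all probes). The 6 that fell were Dot1l, Setd1a, Setd1b, Setd2, Kdm2a and Kdm3a, and those that rose were Hdac1, Hdac2 and Smarca5. The median difference was -0.10 over the 44 genes and 0.05 over all probes.

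Dot1l, the H3K79 methyltransferase, had the largest difference. Its levels were 7.93, 7.92, 7.72 and 7.78 in Control + Veh and 7.30, 7.46, 7.55 and 7.31 in RT-TMZ + Veh, with no overlap. The difference was 0.741-fold (-0.43 ± 0.09 SE, adjusted p = 0.0123 by limma). Setd1a and Setd1b are catalytic subunits of the H3K4 methyltransferase complexes. Setd1b read 10.45, 10.48, 10.46 and 10.53 in Control + Veh and 10.24, 10.29, 10.25 and 10.24 after RT-TMZ (0.856-fold, adjusted p = 0.00412). Setd1a fell to 0.871-fold (adjusted p = 0.0243) and Setd2 to 0.892-fold (adjusted p = 0.0123). The demethylases Kdm2a, which acts on H3K36, and Kdm3a, which acts on H3K9, fell to 0.886-fold (adjusted p = 0.0108) and 0.884-fold (adjusted p = 0.0245).

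The class I deacetylases moved the other way. Hdac1 read 9.60, 9.60, 9.57 and 9.56 in Control + Veh and 9.71, 9.86, 9.80 and 9.85 in RT-TMZ + Veh, 1.17-fold (adjusted p = 0.0123). Hdac2, which is known to restrain memory formation in mouse neurons, rose 1.09-fold (adjusted p = 0.0427), and Smarca5, the ATPase of ISWI remodelers, rose 1.08-fold (adjusted p = 0.0432). All 9 genes separated the groups without overlap. Over all 44 genes, 3 did so upward and 9 downward, against 14.5% and 7.27% of all probes. The rises depended on the scaling, with 0 higher and 8 lower after median centring of each sample, 1 and 10 after quantile normalization, and 0 and 2 without the scaling factor. Without RT-TMZ + Veh replicate 3 the count was 5.

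**Figure D3:**
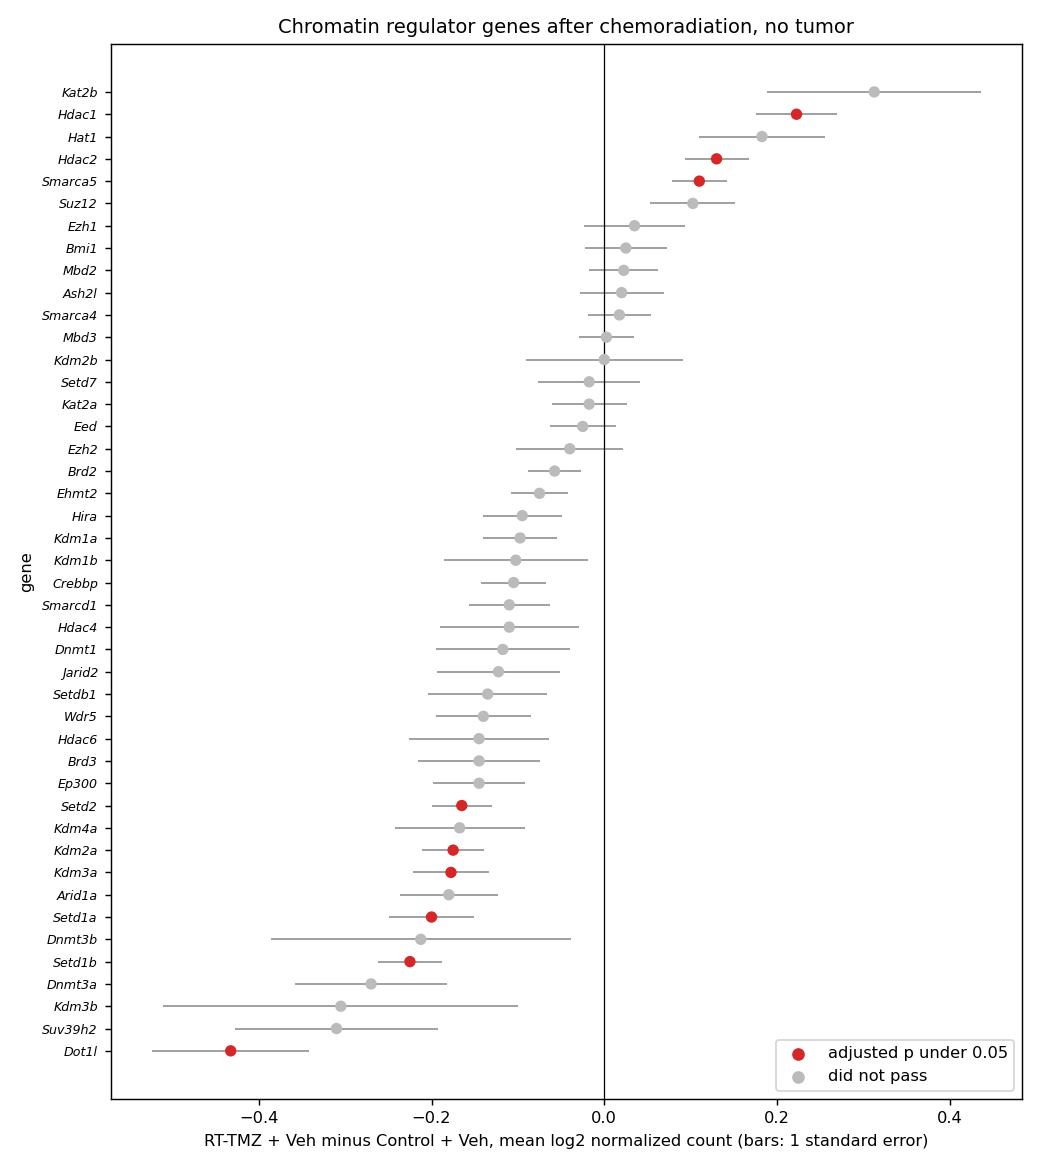
Difference of RT-TMZ + Veh minus Control + Veh in mean log2 normalized count (x axis) for each of the 44 genes (y axis), with 1 standard error from limma; red points passed an adjusted p of 0.05. The red points are 6 lower genes, down to -0.43 for Dot1l, and 3 higher genes, up to 0.22 for Hdac1. Some grey points, such as Kat2b and Suv39h2, had larger differences than most red ones and did not pass.

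The tumor on top of chemoradiation was addressed by CT2A + RT-TMZ + Veh against RT-TMZ + Veh. Here 5 of 44 genes fell and 0 rose. Of all probes 10.6% passed, 8.72% lower and 1.85% higher. The median difference was -0.14 over these genes and -0.14 over all probes, so the genes as a group lay where the whole panel lay. The 5 were Kat2b, Setd2, Bmi1, Suz12 and Smarca5.

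Kat2b, the acetyltransferase PCAF, had the largest and the most scattered difference. It read 8.98, 9.48, 9.54 and 9.24 in RT-TMZ + Veh and 8.20, 7.85, 8.48 and 9.01 in CT2A + RT-TMZ + Veh, where replicate 4 overlapped the other group. The difference was 0.527-fold (-0.93 ± 0.24 SE, adjusted p = 0.0452). Setd2 fell to 0.746-fold (adjusted p = 0.0445) and Bmi1 to 0.774-fold (adjusted p = 0.0325), both without overlap.

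Suz12, a core subunit of polycomb complex 2, read 10.62, 10.76, 10.80 and 10.77 against 10.30, 10.53, 10.23 and 10.53 with the tumor, 0.790-fold (adjusted p = 0.0498). Smarca5 read 11.88, 11.81, 11.85 and 11.83 against 11.59, 11.61, 11.43 and 11.61, 0.822-fold (adjusted p = 0.0391). The other polycomb genes, Ezh1, Ezh2, Eed and Jarid2, did not pass. Groups did not overlap for 14 genes downward and 3 upward, against 15.7% and 5.42% of all probes.

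The 5 calls were close to the threshold. Leaving out single samples gave 1 call without RT-TMZ + Veh replicate 1 and 0 without replicate 2, 3 or 4. In the other group it gave 0 without CT2A + RT-TMZ + Veh replicate 1 or 3, 9 without replicate 2 and 11 without replicate 4. How many of all probes passed in these refits is not given. Median centring gave 0 calls, quantile normalization 2 higher and 2 lower, and the methods' Welch test 0.

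CT2A + RT-TMZ + Veh was set against Control + Veh to show tumor and chemoradiation together. This comparison shares samples with both of the above. Here 16 of 44 genes passed, 2 higher and 14 lower, against 21.1% of all probes, 7.79% higher and 13.3% lower. The median difference was -0.23 over the 44 genes and -0.06 over all probes. The 14 that fell span methylation of histones and DNA and acetylation. They were Setd1b, Setd7, Setd2, Dot1l, Setdb1, Dnmt3a, Dnmt3b, Ep300, Crebbp, Kdm1b, Kdm2a, Kdm3a, Jarid2 and Bmi1, and the 2 that rose were Hdac2 and Mbd3.

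Setd1b had the largest difference, at 9.33, 10.03, 9.44 and 10.04 in CT2A + RT-TMZ + Veh, 0.586-fold of Control + Veh (-0.77 ± 0.17 SE, adjusted p = 0.0168). Replicates 1 and 3 were lower than replicates 2 and 4. The same order was seen in Crebbp and Ep300, paralogous acetyltransferases that serve as coactivators of many transcription factors. Crebbp read 11.12, 11.56, 11.17 and 11.56 against 11.80, 11.85, 11.83 and 11.87 in Control + Veh, 0.714-fold (adjusted p = 0.0201). Ep300 read 9.71, 10.24, 9.71 and 10.15 against 10.41, 10.49, 10.37 and 10.55, 0.706-fold (adjusted p = 0.0320). In both genes all 4 samples lay below every control.

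Dnmt3a, the de novo DNA methyltransferase of postnatal neurons, read 7.12, 7.96, 7.42 and 7.67 against 8.05, 8.24, 8.01 and 8.27, 0.660-fold (adjusted p = 0.0427). Dnmt1, the maintenance enzyme, ranged from 8.56 to 9.06 with the tumor and from 8.74 to 9.05 in Control + Veh and did not pass. Dnmt3b passed at 0.634-fold (adjusted p = 0.0268), on values near or under background in both groups. Setd2 was at 0.665-fold (adjusted p = 0.0115), Dot1l at 0.675-fold (adjusted p = 0.0201) and Kdm3a at 0.717-fold (adjusted p = 0.0115). Setd7, an H3K4 monomethyltransferase, passed at 0.726-fold (adjusted p = 0.0461) with an overlap, since its values were 9.79, 9.81, 9.79 and 10.40. Kdm2a was at 0.745-fold (adjusted p = 0.0248).

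Hdac2 read 11.80, 11.59, 11.66 and 11.66 against 11.37, 11.43, 11.39 and 11.39 in Control + Veh, 1.22-fold (adjusted p = 0.0176), and Mbd3 was at 1.17-fold (adjusted p = 0.0325). These 2 lay outside the 10 largest differences and were chosen after their values were seen. Their sign turned without the scaling factor, to -0.34 and -0.39. By limma after median centring Hdac2 was at 0.4975 (adjusted p = 0.0167) and Mbd3 at 0.445 (adjusted p = 0.0412). After quantile normalization they were at 0.28 (adjusted p = 0.0306) and 0.31 (adjusted p = 0.0305).

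The balance of falls and rises depended on the scaling. As deposited it was 2 higher and 14 lower, after median centring 3 and 0, after quantile normalization 4 and 5, and without the scaling factor 0 and 44. Median centring moved the median difference of all probes from -0.06 to 0.16, and that of the 44 genes from -0.23 to -0.02. Single samples mattered as well, with 2 calls without Control + Veh replicate 1 or 2, 6 without Control + Veh replicate 3 or 4, and 8 and 4 without CT2A + RT-TMZ + Veh replicate 1 and 3. The methods' Welch test made 0 calls among the 44 after adjustment and 22 at an unadjusted p under 0.05, against 29.3% of all probes.

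EVs were compared with vehicle in mice of the same tumor status. By limma, none of the 44 genes passed in any of the 4 comparisons. Without the tumor, 0% of all probes passed with either EV, and 3 of the 44 genes reached an unadjusted p under 0.05 with each, against 12.2% and 5.94% of all probes. Those with Shef6 EV were Hira, Hdac2 and Smarcd1, and those with UCI-191 EV Setd1b, Hdac2 and Setd1a. Hdac2 was 0.911-fold with Shef6 EV (adjusted p = 0.402) and 0.921-fold with UCI-191 EV (adjusted p = 0.735), in comparisons that share the vehicle samples. The methods' Welch test made 0 adjusted calls among these genes in all 4 comparisons.

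In CT2A-bearing mice, 5.02% of all probes passed with Shef6 EV and 1.45% with UCI-191 EV. Among the 44 genes, 13 reached an unadjusted p under 0.05 with Shef6 EV, against 29.3% of all probes, 9 of them higher and 4 lower, against 20.3% and 8.98%. With UCI-191 EV 14 did so, against 24.8% of all probes, 11 of them higher and 3 lower, against 16.9% and 7.93%. Both comparisons use the CT2A + RT-TMZ + Veh samples, so a gene low in that group reads as higher in each. The median difference was 0.13 with Shef6 EV and 0.18 with UCI-191 EV, beside 0.11 and 0.09 over all probes. After median centring it was -0.16 and -0.02, beside -0.18 and -0.11 over all probes.

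Setd2 was 1.43-fold with Shef6 EV (0.51 ± 0.13 SE, adjusted p = 0.0516) and 1.47-fold with UCI-191 EV (0.55 ± 0.13 SE, adjusted p = 0.0621). Mbd3 was 0.796-fold with Shef6 EV (adjusted p = 0.0516), at 10.85, 10.83 and 10.84. Bmi1 was 1.25-fold with Shef6 EV (adjusted p = 0.0580), at 10.24, 10.23 and 10.19. For all of these the EV group and its vehicle group did not overlap. Of the 44 genes, 12 did so upward and 6 downward with Shef6 EV, and 13 and 4 with UCI-191 EV. The share of all probes that did so is not given here, so this is no support for single genes.

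With UCI-191 EV the next were Jarid2 and Crebbp. Jarid2, an accessory subunit of polycomb complex 2, read 8.94, 8.95 and 9.10 against 8.35, 8.65, 8.50 and 8.65, 1.37-fold (adjusted p = 0.0736). Crebbp read 11.77, 11.81 and 11.86, 1.38-fold (adjusted p = 0.104). When CT2A + RT-TMZ + Veh replicate 4 was left out, 8 genes passed with Shef6 EV and 5 with UCI-191 EV, and without replicate 2 these were 6 and 5. Fitting all 7 groups together gave 17 and 21. The share of all probes past the threshold in these refits is not given here.

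Under the same EV, tumor-bearing and tumor-free mice were compared next. With Shef6 EV 0 passed, against 0% of all probes, and 6 reached an unadjusted p under 0.05, against 12.3% of all probes (0 by the Welch test after adjustment). With UCI-191 EV Kat2b alone passed, against 12.8% of all probes. It read 9.60, 9.51 and 9.58 without the tumor and 9.09, 9.22 and 9.37 with it, 0.792-fold (adjusted p = 0.0462), and leaving out single samples gave 0 calls, except without CT2A + RT-TMZ + UCI-191 EV replicate 3, where there were 2. After median centring Kat2b was at -0.18 (log2, adjusted p = 0.136), and 10 other genes passed, all of them higher with the tumor. The centring moved the median difference of all probes from -0.07 to 0.09, and the share of them that passed is not given. Next as deposited were Hdac1 at 0.724-fold (adjusted p = 0.0621) and the demethylase Kdm1b at 0.796-fold (adjusted p = 0.0642).

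**Figure D4:**
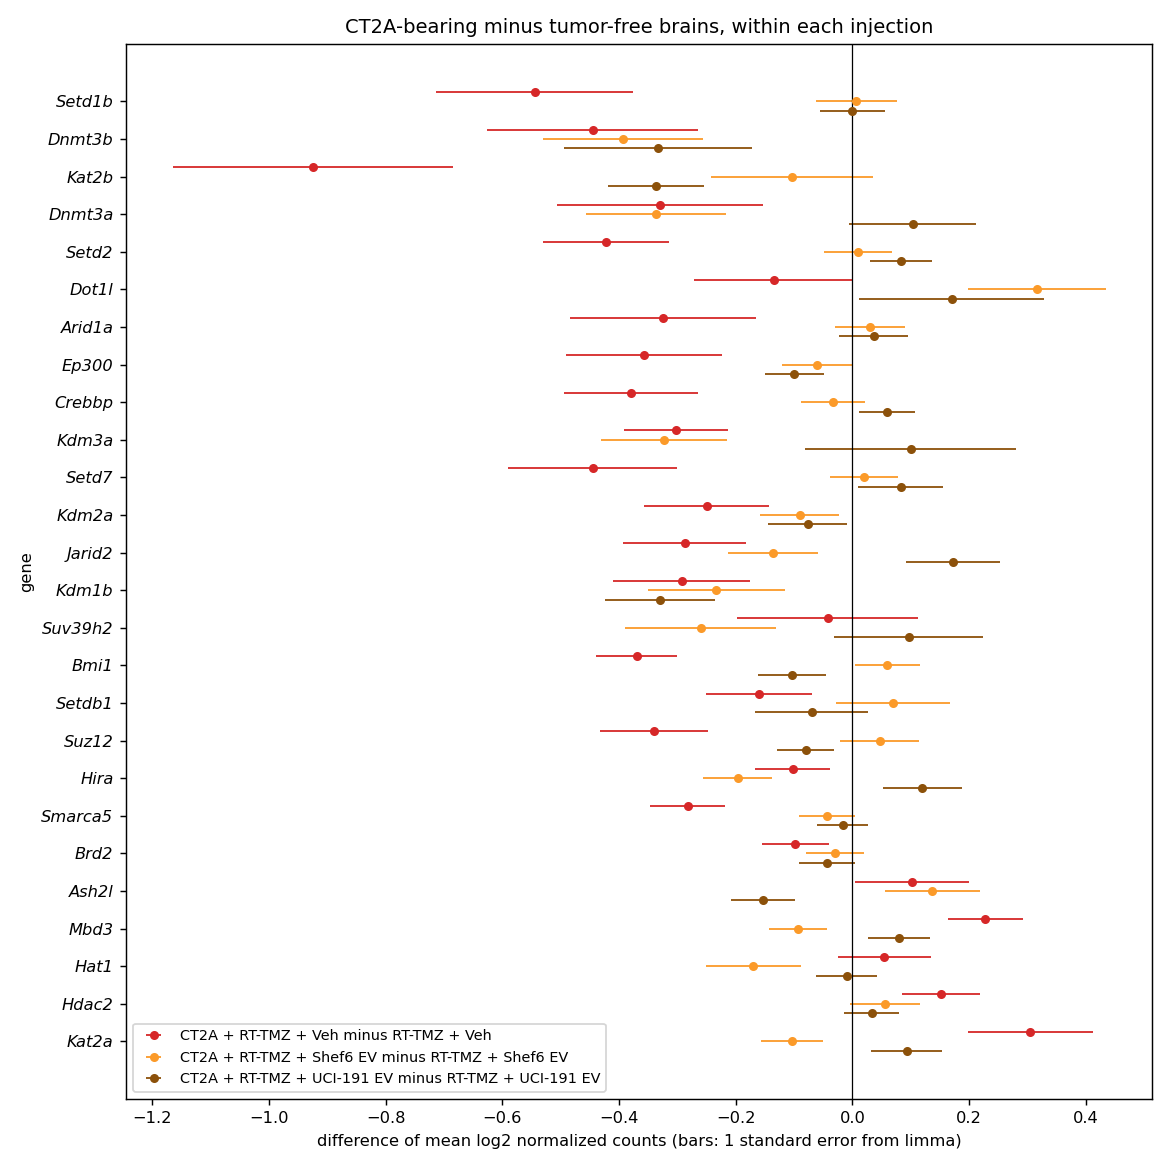
Difference between CT2A-bearing and tumor-free mice that had the same injection, in mean log2 normalized counts with 1 standard error from limma (x axis), for the 26 genes (y axis) that differed across the 7 groups; red is vehicle, orange Shef6 EV and brown UCI-191 EV. For Setd2 the red point is at -0.42 and the others near 0, while the 3 points for Dnmt3b and Kdm1b are all below 0.

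The difference of differences tested whether the EV effect was unlike between tumor-bearing and tumor-free mice. With Shef6 EV 2 of the 44 genes passed, against 6.08% of all probes. Bmi1 had an interaction of 0.43 ± 0.09 (SE, adjusted p = 0.0216) on the log2 scale, which was 0.09 (adjusted p = 0.670) after median centring and 0.18 (adjusted p = 0.188) after quantile normalization. It was at 10.10, 10.19 and 10.19 in RT-TMZ + Shef6 EV, below its vehicle group, and at 10.19 to 10.24 in CT2A + RT-TMZ + Shef6 EV, above its vehicle group. Mbd3 had an interaction of -0.32 ± 0.08 (SE, adjusted p = 0.0345), which turned to 0.08 without the scaling factor and did not pass after median centring (-0.66, adjusted p = 0.0594) or quantile normalization (-0.35, adjusted p = 0.0612). Suz12 followed at 0.39 (adjusted p = 0.0649). Left-out samples gave 0 to 11 calls, with 7 without CT2A + RT-TMZ + Veh replicate 2 and 11 without replicate 4. There were 0 calls without RT-TMZ + Veh replicate 2, 3 or 4, RT-TMZ + Shef6 EV replicate 1 or 2, or CT2A + RT-TMZ + Shef6 EV replicate 3, and 1 without CT2A + RT-TMZ + Veh replicate 1 or 3 or CT2A + RT-TMZ + Shef6 EV replicate 1 or 2. With UCI-191 EV 0 of 44 genes passed in limma, against 1.85% of all probes, and 9 reached an unadjusted p under 0.05, against 19.8% of all probes, led by Setd2 (0.51, adjusted p = 0.0732), Smarca5 and Jarid2. Without CT2A + RT-TMZ + Veh replicate 2 or 4, 5 and 6 genes passed. For both interactions, the share of all probes with a sample left out is not given.

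The 2 EV preparations were also set against each other. No gene of the 44 passed in limma, either without the tumor (0% of all probes) or with it (6.61% of all probes). Unadjusted, 2 and 8 genes were under 0.05, against 11% and 26.7% of all probes, and the Welch test made 0 calls after adjustment in either. With the tumor the leading genes were Ash2l, Hdac1 and Smarcd1. Ash2l, a shared subunit of H3K4 methyltransferase complexes, was between 9.96 and 10.03 with UCI-191 EV and at 10.21, 10.19 and 10.14 with Shef6 EV (adjusted p = 0.0842). Without the tumor they were Hira, a chaperone of histone H3.3, Dnmt1 and Suz12. When the third sample of RT-TMZ + Shef6 EV was left out, calls rose from 0 to 3 there, and likewise to 2 against RT-TMZ + Veh, 4 against CT2A + RT-TMZ + Shef6 EV and 3 against Control + Veh. What share of all probes passed without that sample is not given here, so the rise may be one of the whole panel.

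Against Control + Veh, the EV groups were compared in turn, in comparisons that share the Control samples. RT-TMZ + Shef6 EV gave 0 calls by limma against 5.42% of all probes, with 6 genes under an unadjusted p of 0.05, against 21.1% of all probes, and 0 adjusted calls by the Welch test. RT-TMZ + UCI-191 EV gave 6 calls against 21% of all probes. Kat2b rose 1.48-fold (adjusted p = 0.00130) and Hdac1 1.18-fold (adjusted p = 0.00395). Suv39h2, an H3K9 methyltransferase, fell to 0.746-fold (adjusted p = 0.0270), Dot1l to 0.750-fold, Kdm3a to 0.878-fold and Setd2 to 0.922-fold.

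CT2A + RT-TMZ + Shef6 EV gave 6 calls against 18% of all probes. Suv39h2 read 6.99, 7.20 and 7.22 against 7.87, 7.64, 7.82 and 7.56 in Control + Veh, 0.666-fold (adjusted p = 0.0129). Kdm3a was at 0.750-fold (adjusted p = 0.00422), Dnmt3a at 0.751-fold (adjusted p = 0.0341), Smarcd1 at 0.863-fold and Kdm2a at 0.866-fold. Hdac1 was 1.20-fold higher (adjusted p = 0.0171), with a difference of -0.000512 on the log2 scale without the scaling factor.

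CT2A + RT-TMZ + UCI-191 EV gave 3 calls against 13.1% of all probes, all lower. Kdm1b, a flavin-dependent H3K4 demethylase, read 7.07, 7.19 and 7.06 against 7.43, 7.57, 7.55 and 7.59, 0.743-fold (adjusted p = 0.0210). Kdm2a was at 0.868-fold and Ash2l at 0.873-fold. Kdm2a was thus lower than the same Control + Veh samples in both EV groups with the tumor, as it was in RT-TMZ + Veh (-0.175, adjusted p = 0.0108). By limma it did not pass with Shef6 EV after quantile normalization (adjusted p = 0.131). With UCI-191 EV it did not pass after median centring (adjusted p = 0.068). Counts moved over 1.5 times when single samples were left out. For RT-TMZ + UCI-191 EV they fell to 2 or 3 without Control + Veh replicate 1 or 3 or EV replicate 2 or 3. For CT2A + RT-TMZ + Shef6 EV they fell to 2 or 3 without Control + Veh replicate 1 or 3 or EV replicate 2. For CT2A + RT-TMZ + UCI-191 EV they were 0 or 1 without any Control + Veh replicate or EV replicate 1 or 2, and 5 without EV replicate 3.

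Hdac1 and Smarcd1, a subunit of SWI/SNF remodelers, varied with Mef2c, a transcription factor of forebrain neurons. Mef2c was between 13.71 and 14.38 in RT-TMZ + Shef6 EV replicates 1 and 2, CT2A + RT-TMZ + Veh replicate 2 and all 3 CT2A + RT-TMZ + UCI-191 EV samples. It was between 11.67 and 12.91 in the other 18 samples. Since no sample of Control + Veh, RT-TMZ + UCI-191 EV or CT2A + RT-TMZ + Shef6 EV was high, Mef2c cannot be told apart from the group where CT2A + RT-TMZ + UCI-191 EV is compared with these. In the same 6 samples Hdac1 read 9.36, 9.44, 9.21, 9.46, 9.56 and 9.04, and Smarcd1 10.44, 10.42, 10.72, 10.26, 10.34 and 10.93. CT2A + RT-TMZ + UCI-191 EV replicate 3 was at an extreme for both.

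Within groups, the slope on Mef2c passed for 10 of 44 genes, against 27.5% of all probes, in a fit of all 24 samples chosen after the values were seen. Smarcd1 rose by 0.25 ± 0.05 (SE, adjusted p = 0.000729) for each unit of Mef2c on the log2 scale. Hdac1 changed by -0.23 ± 0.04 (adjusted p = 0.000454) and Kdm2b by -0.24 ± 0.05 (adjusted p = 0.00154). Setd2, Dnmt1, Dnmt3a, Kat2a, Brd3 and Arid1a had positive slopes and Kat2b a negative slope.

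Kat2b varied with Ttr, the transthyretin gene that choroid plexus makes in bulk. Ttr ranged from 5.31 to 14.86 over the samples, and from 14.25 to 14.85 in RT-TMZ + UCI-191 EV, where Kat2b had its highest mean of 9.56 ± 0.05 (SD over 3 samples). Within groups Kat2b rose by 0.07 ± 0.01 for each unit of Ttr (adjusted p = 0.000335), and it alone of the 44 passed, against 12.4% of all probes. With Ttr as a covariate, the calls of RT-TMZ + UCI-191 EV against Control + Veh went from 6 to 0, and those of CT2A + RT-TMZ + Veh against RT-TMZ + Veh from 5 to 0. Ttr was between 6.72 and 10.27 in Control + Veh, with no overlap with RT-TMZ + UCI-191 EV, so in the first of these fits Ttr and the group cannot be told apart. In the second, Setd2, Smarca5, Suz12 and Bmi1 were among the 5 and had no passing slope on Ttr (adjusted p = 0.136 to 0.916 by limma). That count was also 0 with the replicate block. The part of Ttr in these calls was not tested, and the share of all probes in these fits is not given.

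**Figure D5:**
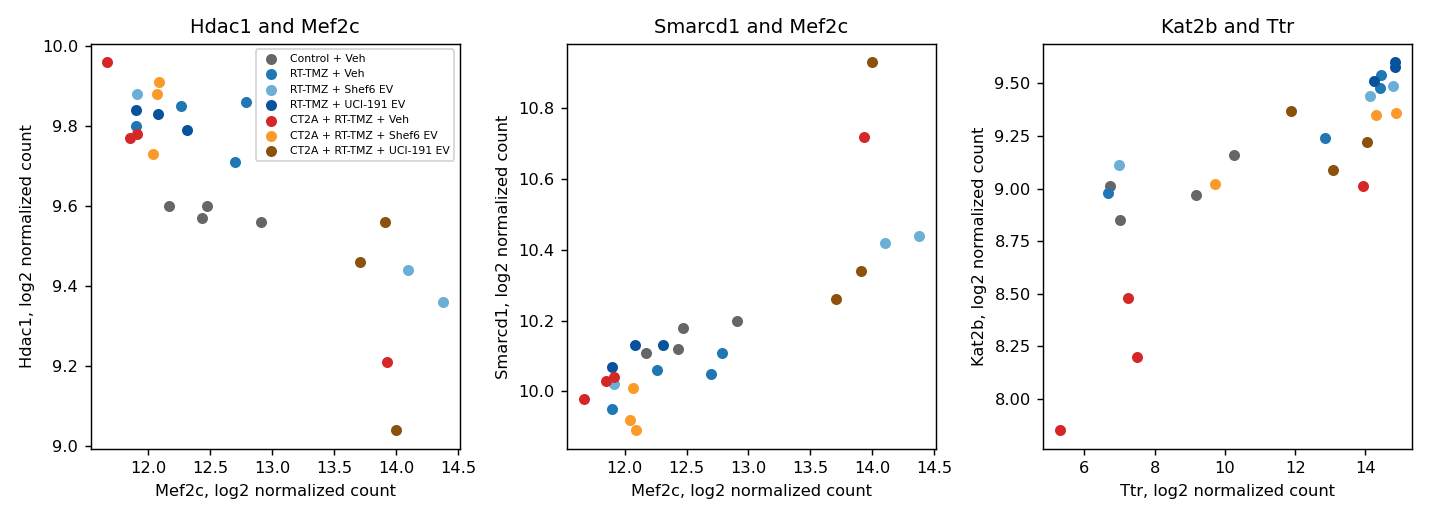
Log2 normalized counts of Hdac1 and Smarcd1 (y axes) against Mef2c (x axes), and of Kat2b against Ttr, in the 24 samples, coloured by group. The 6 samples with Mef2c at or above 13.71 hold Hdac1 values of 9.04 to 9.56 and Smarcd1 values of 10.26 to 10.93, and Kat2b is lowest, at 7.85, where Ttr is lowest, at 5.31.

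A set of 11 further genes of chromatin control on the panel, not part of the list of 47, gave calls in 9 of 11 across the 7 groups, against 48% of all probes. In CT2A + RT-TMZ + Veh against Control + Veh, 7 were lower, against 13.3% of all probes, and Kdm4d was higher (0.86, adjusted p = 0.0414), against 7.79%. Hells, a remodeler needed for DNA methylation, was lower by -0.85 (adjusted p = 0.0140), Kmt2c, an H3K4 methyltransferase, by -0.72 (adjusted p = 0.0248) and Sirt1, an NAD-dependent deacetylase, by -0.41 (adjusted p = 0.0201). With Shef6 EV, Hells was higher than in CT2A + RT-TMZ + Veh (0.85, adjusted p = 0.0404), as was Kdm5d (0.45, adjusted p = 0.0291). Of all probes 5.02% passed there. Sirt1 and Kdm5b fell after RT-TMZ without the tumor, by -0.23 (adjusted p = 0.0235) and -0.13 (adjusted p = 0.0477), where 5.68% of all probes fell. Results for these 11 genes under the other scalings are not given. Median centring moved the median difference of all probes from -0.055 to 0.16 for CT2A + RT-TMZ + Veh against Control + Veh. For CT2A + RT-TMZ + Shef6 EV against CT2A + RT-TMZ + Veh it moved that median from 0.105 to -0.18.

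Many genes of the list varied little. Ehmt2, the H3K9 dimethyltransferase G9a, ranged from 12.38 to 12.63 over all 24 samples, Eed, the histone-binding subunit of polycomb complex 2, from 9.83 to 10.03, and Kdm1a, the demethylase LSD1, from 10.28 to 10.54. Smarca4, the ATPase BRG1, ranged from 11.19 to 11.50 and Wdr5, a scaffold of H3K4 methyltransferase complexes, from 8.87 to 9.20. The group means of these 5 genes spanned 0.12 for Eed to 0.17 for Wdr5. Kat2b had the widest range of group means, 1.18, followed among genes above background by Setd1b at 0.77. Dnmt3b spanned 0.78 on values near or under background. Over the 44 genes, Spearman's rho between genomic length and the difference was -0.11 for RT-TMZ + Veh against Control + Veh, -0.46 for CT2A + RT-TMZ + Veh against RT-TMZ + Veh and -0.44 for CT2A + RT-TMZ + Veh against Control + Veh, as a description across genes measured in the same samples.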

How the data were processed

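Gene expression was measured with the nCounter Mouse Neuroinflammation panel, which counts barcoded probes without amplification, in 24 brain samples of 7 groups. The authors deposited log2 normalized counts. Per the methods, raw counts were scaled to positive controls and then to 13 reference genes, and neither the raw counts nor the reference genes were used here. Low values, divided by a recovered scaling factor, were whole within 0.15 counts in 99.2 to 100% of cases. The way of recovering it, which leaves out each sample's lowest value, was settled after the values were seen. Between 64 and 112 probes per sample lay under 20 normalized counts, and correlations of replicates were 0.965 to 0.996.

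The labels do not state that each sample is a separate mouse, so p-values measure only the spread between these samples, which may be technical. For each comparison the groups concerned were fitted with limma 3.58.1 in R 4.3.3 (eBayes, trend fitted to the mean level). Adjustment was by Benjamini-Hochberg over all probes, named or not, at a threshold of 0.05. The tests were 1 F test over the 7 groups, 15 comparisons of pairs of groups and 2 interactions. The methods' t-test (Welch, two-sided) was an alternative, as were other scalings, a pseudocount of 20, a filter at background, all groups in a joint fit, a replicate block and leaving out each sample. Covariates Ttr and Mef2c were added after seeing the data. The fit was tested on simulated data. Python 3.11.15 with numpy 2.4.6, pandas 2.3.3 and matplotlib 3.10.9 did the rest.

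Genes named with statistics are those past the threshold, up to the 10 largest differences of a comparison, or the 3 smallest p-values where fewer than 3 passed. Members and lists were chosen with earlier results of these data known. A symbol was given for 703 probes and none for 54.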

Additional observations from a re-analysis of the deposited data

Results flagged for a closer look

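In groups of 4 samples, the highest or lowest sample was compared with the others by Dixon's ratio. Of 132 such groups of values, 5 had a sample apart from the rest, and chance alone would flag about 1 in 20. Bmi1 was high in 1 sample of RT-TMZ + Veh, at 10.31 against 10.25 to 10.26. In CT2A + RT-TMZ + Veh, Setd7 was high in replicate 4 at 10.40, Smarca5 was low in replicate 3 at 11.43, and replicate 2 was high for Kat2a at 10.84 and for Smarcd1 at 10.72. Replicate 2 of that group also had the highest Mef2c of the group, at 13.93, and the lowest Ttr, at 5.31; the part of these in the values was not tested.

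For 2 of the 44 genes the difference between Shef6 EV and vehicle was unlike in CT2A-bearing and tumor-free mice, by limma's test of the interaction. Of all probes 6.08% passed that test. The interaction was 0.43 for Bmi1 (adjusted p = 0.0216) and -0.32 for Mbd3 (adjusted p = 0.0345). After median centring that of Bmi1 was 0.09 (adjusted p = 0.670) and that of Mbd3 -0.66 (adjusted p = 0.0594). Quantile normalization gave 0.18 (adjusted p = 0.188) and -0.35 (adjusted p = 0.0612). Without the scaling factor that of Mbd3 was 0.08 (adjusted p = 0.631). In CT2A-bearing mice Bmi1 was higher with EV in 3 of 3 samples than in all 4 vehicle samples, and Mbd3 lower in 3 of 3. These are the values that flagged the 2 genes, so they add no separate support.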

How the results depend on the processing

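Counts below are of the 44 genes past the threshold, and the cause of each change was not tested. The share of all probes under each alternative is not given here, so a change in count may be one of the whole panel. Without the scaling factor, all probes had a median difference of -0.67 in CT2A + RT-TMZ + Veh against Control + Veh. That of the 44 genes was -0.85. The F test across the 7 groups gave 26, kept between 23 and 30 when single samples were left out, and gave 44 without the scaling factor. RT-TMZ + Veh against Control + Veh gave 9, with 2 without the scaling factor, 1 with all groups in a joint fit, 1 with the replicate block, 5 with Ttr as a covariate, and 5 to 9 with a sample left out. CT2A + RT-TMZ + Veh against RT-TMZ + Veh gave 5, with 0 after median centring, by the methods' t-test, with the replicate block and with Ttr as a covariate. It gave 43 without the scaling factor, 20 in the joint fit, 1 without the mean trend, 13 with Mef2c as a covariate, and 0 to 11 with a sample left out. CT2A + RT-TMZ + Veh against Control + Veh gave 16, with 3 after median centring, 9 after quantile normalization, 44 without the scaling factor and 29 in the joint fit. It gave 0 by the methods' t-test, 1 with the replicate block, 27 with Mef2c as a covariate, and 2 to 23 with a sample left out.

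Shef6 EV against vehicle gave 0 in tumor-free mice, and 0 to 2 with a sample left out. UCI-191 EV against vehicle there gave 0 under every alternative run. In CT2A-bearing mice Shef6 EV gave 0, with 26 without the scaling factor, 2 with probes above background only, 17 in the joint fit, 2 with the replicate block, 10 with Mef2c as a covariate, and 0 to 8 with a sample left out. UCI-191 EV gave 0 there, with 32 without the scaling factor, 21 in the joint fit, 3 with Mef2c as a covariate, and 0 to 5 with a sample left out. The tumor under Shef6 EV gave 0, and 0 to 4 with a sample left out. Under UCI-191 EV it gave 1, which was lower, with 10 after median centring, all higher, 19 without the scaling factor, all lower, 0 in the joint fit, by the methods' t-test, with the replicate block and with either covariate, and 0 to 2 with a sample left out. UCI-191 EV against Shef6 EV gave 0 without the tumor (0 to 3 with a sample left out) and 0 with it (1 after median centring, 0 to 1 with a sample left out).

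Against Control + Veh, RT-TMZ + Shef6 EV gave 0, with 1 after median centring, 1 after quantile normalization and 0 to 3 with a sample left out. RT-TMZ + UCI-191 EV gave 6, with 25 after median centring, 12 after quantile normalization, 2 without the scaling factor, 2 in the joint fit, 3 by the methods' t-test, 0 with Ttr as a covariate, and 2 to 6 with a sample left out. CT2A + RT-TMZ + Shef6 EV gave 6, with 29 without the scaling factor, 2 in the joint fit, 1 by the methods' t-test, 1 with the replicate block, 0 with Ttr and 1 with Mef2c as a covariate, and 2 to 7 with a sample left out. CT2A + RT-TMZ + UCI-191 EV gave 3, with 1 after median centring, 16 without the scaling factor, 1 in the joint fit, 1 without the mean trend, 0 by the methods' t-test, with the replicate block and with either covariate, and 0 to 5 with a sample left out. The Shef6 EV interaction gave 2, with 0 after median centring, 24 without the scaling factor, 10 in the joint fit, 1 without the mean trend, 1 with Ttr as a covariate, and 0 to 11 with a sample left out. The UCI-191 EV interaction gave 0, with 22 without the scaling factor, 6 in the joint fit, 5 with Mef2c as a covariate, and 0 to 6 with a sample left out. A pseudocount of 20 moved no count by over 1.5 times.

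Some named genes changed sign. Without the scaling factor Hdac2 and Mbd3 in CT2A + RT-TMZ + Veh against Control + Veh were -0.34 and -0.39, Mbd3 in CT2A + RT-TMZ + Shef6 EV against its vehicle was 0.030, its interaction 0.081, and Hdac1 in CT2A + RT-TMZ + Shef6 EV against Control + Veh -0.000512. Suz12 between the EV groups without the tumor was -0.013 after median centring. With Mef2c as a covariate Hdac1 was 0.36 for the tumor under UCI-191 EV and 1.30 between the EV groups with the tumor, and Smarcd1 was -2.91 there. These last fits extrapolate, since Mef2c separates the groups. Ttr likewise separates both UCI-191 EV groups from Control + Veh. Over the alternatives other than these covariates, single named genes kept direction and call 847 times, lost the call 326 times, gained it 54 times and changed sign 6 times.

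Deviations of same-numbered samples of different groups from their group means had 66 correlations of -0.54 to 0.58 (median 0.004, 20 over 0.1). Samples of unlike number were not compared, so whether same-numbered samples share a batch or a pairing was not tested. Counts of 862077 to 1477390 per sample bound the precision of low genes such as Kdm3b and Dnmt3b, and the 3 or 4 samples of a group bound that of all of them.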
